A study of Homo sapiens with 12 samples.

Results

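The genes described here are 44 SR proteins, heterogeneous nuclear ribonucleoproteins (hnRNPs) and related regulators of splicing, followed through RNA-Seq libraries of HPB-ALL and KOPTK1 cells, both lines of T-lymphoblastic leukemia (T-ALL). They were chosen by name, as the rows whose Ensembl identifier, with its version dropped, maps to a listed symbol, and they are 44 of the 58288 genes in each deposited table. By role they comprise 11 SR proteins, 4 SR-like or SR-related proteins, 6 kinases of SR proteins, 14 hnRNPs, 4 proteins of the PTB and DBHS families and 5 regulators of the RBM and TIA families. All 44 passed the filter on low counts, as did 28063 genes in all.

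Both lines were infected with pLKO.1 lentiviruses that carried a short hairpin RNA (shRNA) against SHQ1, an assembly factor of H/ACA ribonucleoproteins, or against GFP as the control. The labels give 48 h of culture in 2 µg/mL puromycin, and the methods describe infection and selection as separate steps. Each line has 3 samples labelled shSHQ1 and 3 labelled shGFP, so every cell analysed had received a lentiviral vector and puromycin, and no uninfected cells were among them. Both are established cell lines, and each stands for the disease as a single line. RNA was depleted of rRNA before sequencing.

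The tables head their 6 columns per line by numbers alone, 7 to 12 for HPB-ALL and 1 to 6 for KOPTK1, and these numbers match no label. Each column could be assigned to its line but not to an shRNA, so knockdown and control were not compared. The comparison that the columns allow is that of HPB-ALL with KOPTK1, each line with both arms. Each line came in a table of its own, so the line cannot be told apart from any batch in which it was handled or sequenced. Nothing states that the libraries of an arm came from separate cultures, and the p-values measure the spread between these libraries only.

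SR proteins carry an RNA-binding domain and a tail rich in arginine and serine, and in the textbook view they bind exonic enhancers and promote the use of nearby splice sites. The kinases of the SRPK and CLK families phosphorylate that tail and so govern where SR proteins reside and when they engage the spliceosome. Many hnRNPs coat nascent transcripts and oppose SR proteins at silencer elements, so that the balance between both families sets the choice of splice sites.

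The total count of a library was 36792076 to 42842791 in HPB-ALL and 22884785 to 36098045 in KOPTK1. Every member had at least 1127.5 counts in each HPB-ALL library and at least 413 in each KOPTK1 library. Of 14 T-lineage markers, 12 had a median of at least 1 RPKM (reads per kilobase of exon, scaled to the total count of the library) in HPB-ALL and 13 in KOPTK1. Their summed level was 1006 to 1047 RPKM in HPB-ALL and 1067 to 1151 RPKM in KOPTK1. The markers of myeloid cells summed to at most 1.62 RPKM in any library, those of erythroid cells to 2.58 RPKM and those of epithelial and stromal cells to 2.39 RPKM. Of 5 B-lineage markers CD79A was the abundant one, and it differed among the KOPTK1 libraries as well as between the lines.

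KOPTK1 libraries 1, 2 and 3 stood apart from libraries 4, 5 and 6, on the side of HPB-ALL. Over 28063 genes, Pearson's r of log2 CPM (counts scaled to the library total) with the HPB-ALL libraries was 0.972 to 0.980 for libraries 1 to 3 and 0.943 to 0.949 for libraries 4 to 6. CD79A had 40.3 to 45.9 RPKM in the HPB-ALL libraries. It had 24.0, 24.6 and 24.3 RPKM in KOPTK1 libraries 1, 2 and 3, and 7.17, 6.82 and 5.87 RPKM in libraries 4, 5 and 6. Library 3 also had more genes with at least 1 count (41131) than the other 11 libraries (36506 to 38467). Where the additional genes of library 3 came from was not tested. Whether libraries 1 to 3 stood apart through the shRNA they received or through mixed or mislabelled samples cannot be told apart here, so a level or fold for KOPTK1 depends on which of its libraries are taken. The counts of members called, and the folds of the members with the widest gaps, are therefore given with all libraries and without each of these sets.

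The 4 highest levels belonged to hnRNPs in both lines, and the lowest to CLK4 and SRSF8 (plot of RPKM by library). In HPB-ALL the median level ran from 7.23 RPKM for CLK4 to 251 RPKM for HNRNPA2B1. In KOPTK1 it ran from 5.94 RPKM for SRSF8 to 263 RPKM for HNRNPA1. HNRNPA2B1 and HNRNPA1, which bind exonic and intronic silencers, headed both orders, and their ranges over libraries overlapped within each line. HNRNPK, HNRNPH1 and the paraspeckle protein NONO followed, with medians of 192, 191 and 174 RPKM in HPB-ALL and of 182, 198 and 168 RPKM in KOPTK1.

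By class, the median level was 124 RPKM over the 14 hnRNPs in HPB-ALL and 113 RPKM in KOPTK1. It was 60.6 and 64.1 RPKM over the 11 SR proteins, and 30.1 and 30.4 RPKM over the 6 kinases. Of the 43 pairs of neighbours in the order of median levels, 19 had ranges apart in HPB-ALL and 12 in KOPTK1. The ranges of the remaining neighbours overlapped, and whether 1 of a pair was higher in every library was not examined. The orders in both lines were alike (Spearman's rho = 0.977 over 44 genes, which share libraries and gene lengths), and RBM39 moved the most places, from rank 17 in HPB-ALL to rank 6 in KOPTK1. SRRM2, a large scaffold of nuclear speckles, ranked 10 and 8 by RPKM, but 1 in both lines by CPM, which does not divide by length.

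Both lines expressed the same set of regulators, and most differences between them were small. In these bulk libraries, fewer cells that express a gene and less RNA per cell cannot be told apart. With edgeR's quasi-likelihood test and Benjamini-Hochberg adjustment over all genes tested, 32 of the 44 members passed an adjusted p of 0.05, 17 higher and 15 lower in HPB-ALL. Of all 28063 genes tested, 63.5% passed, 30.5% higher and 33% lower in HPB-ALL. The median absolute log2 difference was 0.13 over the members and 0.35 over all genes tested, and the median signed difference was 0.01 over the members and -0.03 over all genes. The absolute median was 0.19 over 52 other splicing regulators and 0.19 over 47 core spliceosome genes, so small differences were not particular to the members. The filter admitted genes of far fewer counts than the members, and differences were not set against genes of like level. With a change of at least 1.5-fold as well, SRSF8 and CLK3 were the 2 members that passed, against 29.1% of all genes. Of the other splicing regulators 5 passed, and of the core spliceosome genes 0. The count of members depended on the KOPTK1 libraries taken. RBM39 passed as well without libraries 1 to 3 (3 members, against 39.2% of all genes), and SRSF8 alone passed without libraries 4 to 6 (1 member, against 19.5%). The division into higher and lower depended on the scaling and the filter. Upper quartile normalization in place of TMM (trimmed mean of M-values, the scaling used throughout) called 29 members, 10 of them (34.5%) higher in HPB-ALL. Without the filter on low counts, and still with TMM, 32 were called, 21 of them (65.6%) higher, against 53.1% with TMM and the filter. Below, a result given with TMM is from the fit with both.

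Of the 32 members called, 21 passed the threshold under all 17 alternatives run, 10 higher and 11 lower in HPB-ALL. The other 11 (SRSF9, SRRM2, HNRNPA0, HNRNPA1, HNRNPF, HNRNPK, HNRNPR, HNRNPU, SFPQ, NONO and RBM25) missed it under at least 1 alternative, and all 32 kept their sign. The matching shares of all called genes were not counted, so these counts cannot be called particular to the members. Without KOPTK1 libraries 1, 2 and 3, 34 members passed, 18 higher and 16 lower in HPB-ALL, against 68% of 29181 genes. Without libraries 4, 5 and 6, 31 passed, 16 higher and 15 lower, against 50% of 29372 genes. The ranges of the 6 HPB-ALL and 6 KOPTK1 libraries did not overlap for 22 members (10 higher and 12 lower in HPB-ALL) and for 43.3% of all genes tested.

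**Figure D1:**
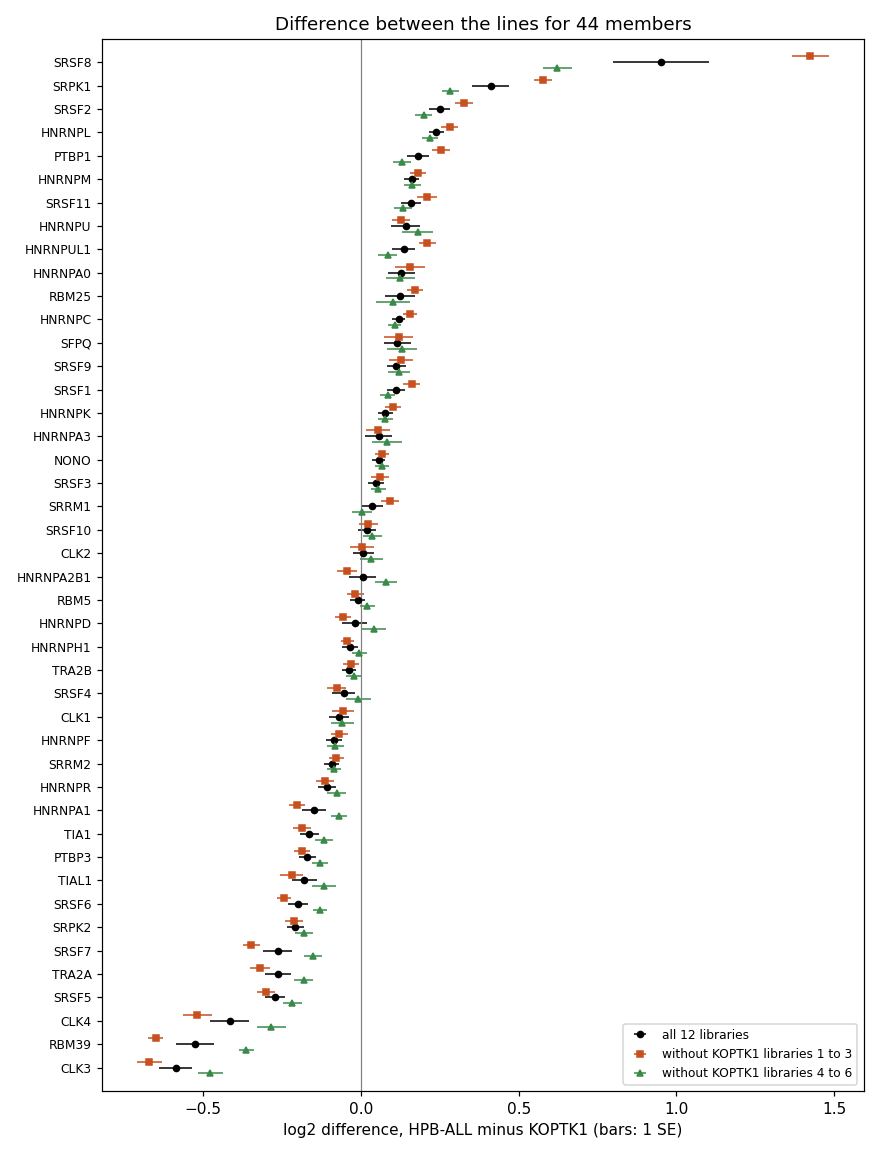
Log2 difference between the lines, HPB-ALL minus KOPTK1, for each of the 44 members, with bars of 1 SE from edgeR. Black circles use all 12 libraries, orange squares leave out KOPTK1 libraries 1 to 3 and green triangles leave out libraries 4 to 6. SRSF8 lies at 0.95 with all libraries, at 1.43 without libraries 1 to 3 and at 0.62 without libraries 4 to 6, and CLK3 lies lowest with all libraries, at -0.59.

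Among the SR proteins, SRSF8 showed the largest difference of all members. SRSF8 is a retrotransposed relative of SRSF2 and was one of the least abundant members. Its row lies at chr11:95067197-95071224 on the plus strand of GRCh38, and its counts were whole numbers in all 12 libraries. It had 10.9 to 12 RPKM in the HPB-ALL libraries, with a median of 11.2. In KOPTK1 it had 7.29, 7.40 and 7.39 RPKM in libraries 1, 2 and 3, and 3.95, 4.15 and 4.6 RPKM in libraries 4, 5 and 6. The lines did not overlap, and libraries 1 to 3 lay between the other KOPTK1 libraries and HPB-ALL. SRSF8 was 1.93-fold higher in HPB-ALL (log2 difference 0.95, SE 0.15, adjusted p = 1e-04 by edgeR), 2.69-fold higher without KOPTK1 libraries 1 to 3 and 1.54-fold higher without libraries 4 to 6.

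**Figure D2:**
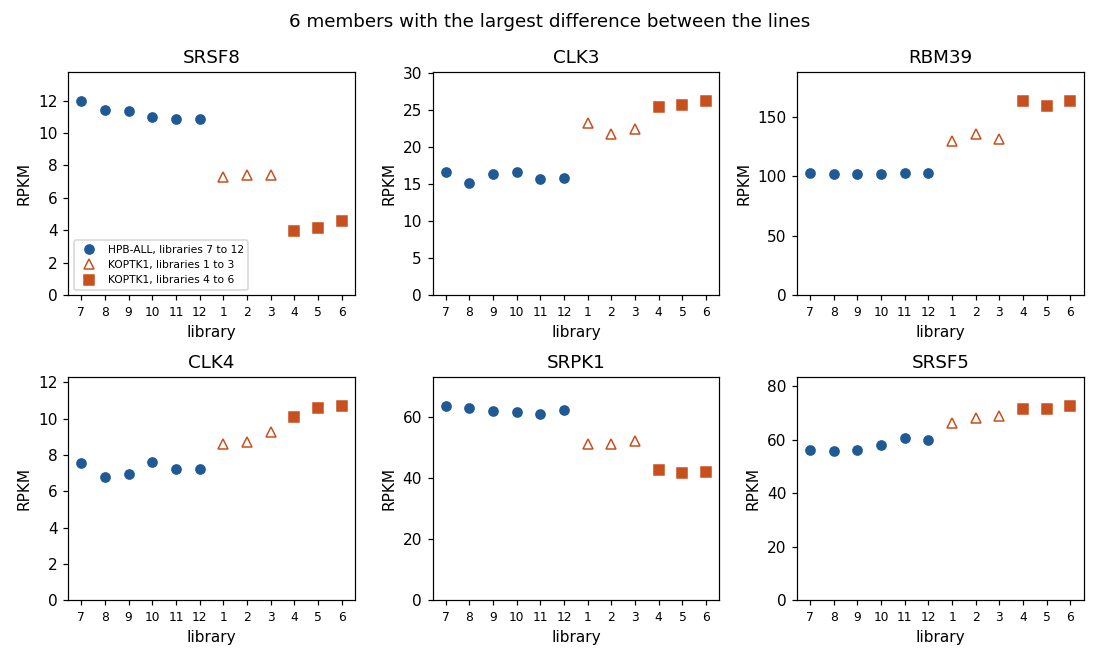
RPKM per library, on an axis that starts at 0, for the 6 members with the largest absolute log2 difference between the lines. Libraries are ordered by line and number, with HPB-ALL as blue circles, KOPTK1 libraries 1 to 3 as open orange triangles and libraries 4 to 6 as filled orange squares. SRSF8 and SRPK1 are higher and CLK3, RBM39, CLK4 and SRSF5 lower in all HPB-ALL libraries, with no overlap between the lines.

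The other SR proteins differed by less than 1.5-fold. SRSF2 (SC35), a component of nuclear speckles, had 99.6 to 106 RPKM in HPB-ALL and 81.2 to 91.2 RPKM in KOPTK1 (log2 difference 0.25, SE 0.03, adjusted p = 2.1e-05 by edgeR). SRSF1 (ASF/SF2), the most abundant SR protein in both lines, had 120 to 130 RPKM in HPB-ALL and 111 to 121 RPKM in KOPTK1. The lines overlapped for SRSF1, which passed the test with a log2 difference of 0.11 (SE 0.03). SRSF11 and SRSF9 were higher in HPB-ALL by 0.16 and 0.11 on the log2 scale.

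SRSF5, SRSF6 and SRSF7 were lower in HPB-ALL, with no overlap between the lines. SRSF5 had 55.9 to 60.8 RPKM in HPB-ALL and 66.1 to 72.5 RPKM in KOPTK1 (log2 difference -0.27, SE 0.03, adjusted p = 6.6e-06 by edgeR). SRSF7 had 49.8 to 53.0 RPKM in HPB-ALL and 57.3 to 66.6 RPKM in KOPTK1 (log2 difference -0.26, SE 0.05). SRSF6 had 78.5 to 81.4 RPKM in HPB-ALL and 87.0 to 95.9 RPKM in KOPTK1 (log2 difference -0.20, SE 0.03). SRSF6 binds exonic enhancers, and SRSF7 also takes part in export of mRNA.

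SRSF3, SRSF4 and SRSF10 did not pass the test. SRSF3, which also acts in export of mRNA, had medians of 72.8 RPKM in HPB-ALL and 70.0 RPKM in KOPTK1 (log2 difference 0.05, SE 0.03). SRSF4 had medians of 51.6 and 54.7 RPKM, with KOPTK1 library 3 the lowest of all at 48.8 RPKM. SRSF4 passed without KOPTK1 libraries 1 to 3 (log2 difference -0.08, adjusted p = 0.026 by edgeR). It also passed with upper quartile normalization (log2 difference -0.0963, adjusted p = 0.042 by edgeR), and its lowest adjusted p by edgeR over the alternatives was 0.021. SRSF3 passed with DESeq2 (adjusted p = 0.014) and without the filter (adjusted p = 0.0036 by edgeR), and SRSF10 without the filter (adjusted p = 0.046 by edgeR). In all, 8 of the 11 SR proteins (72.7%) were called with TMM, against 63.5% of all genes, 5 higher and 3 lower in HPB-ALL. With upper quartile normalization 4 were higher and 4 lower, and without the filter 7 were higher and 3 lower.

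TRA2A and TRA2B are close relatives of the SR proteins that bind purine-rich enhancers, and TRA2A passed the test with TMM while TRA2B passed only with upper quartile normalization (log2 difference -0.08, adjusted p = 0.012 by edgeR). TRA2A had 46.6 to 49.7 RPKM in HPB-ALL and 53.4 to 62.4 RPKM in KOPTK1, without overlap (log2 difference -0.26, SE 0.04, adjusted p = 6.7e-05 by edgeR). TRA2B had 81.8 to 84.2 RPKM in HPB-ALL and 83.6 to 86.3 RPKM in KOPTK1 (log2 difference -0.04, SE 0.02, with TMM). The ratio of TRA2B to TRA2A within a library was 1.69 to 1.79 in HPB-ALL and 1.38 to 1.6 in KOPTK1. SRRM2 was lower in HPB-ALL by a small amount (log2 difference -0.09, SE 0.02), with 123 to 129 RPKM against 131 to 138 RPKM. SRRM1, a coactivator that bridges enhancer-bound SR proteins to the spliceosome, had medians of 71.8 and 69.8 RPKM (log2 difference 0.04, SE 0.03). It passed without the filter (adjusted p = 0.039 by edgeR) and without KOPTK1 libraries 1 to 3 (adjusted p = 0.0088 by edgeR), but not with all libraries and TMM.

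Among the kinases, SRPK1 and SRPK2, which phosphorylate SR proteins chiefly in the cytoplasm, differed in opposite directions. SRPK1 (chr6:35832966-35921342, minus strand) had 61.0 to 63.5 RPKM in HPB-ALL. In KOPTK1 it had 51.2, 51.1 and 52.2 RPKM in libraries 1, 2 and 3, and 42.6, 41.7 and 41.9 RPKM in libraries 4, 5 and 6. SRPK1 was thus higher in every HPB-ALL library (1.33-fold, log2 difference 0.41, SE 0.06, adjusted p = 3.7e-05 by edgeR), 1.49-fold higher without KOPTK1 libraries 1 to 3 and 1.22-fold higher without libraries 4 to 6. SRPK2 had 50.5 to 54.8 RPKM in HPB-ALL and 59.4 to 63.7 RPKM in KOPTK1 (log2 difference -0.21, SE 0.03, adjusted p = 2.2e-05 by edgeR). The ratio of SRPK1 to SRPK2 was 1.11 to 1.25 in the HPB-ALL libraries and 0.655 to 0.862 in the KOPTK1 libraries, so the more abundant of both kinases was SRPK1 in every HPB-ALL library and SRPK2 in every KOPTK1 library. Within KOPTK1 the ratio was 0.840 to 0.862 in libraries 1 to 3 and 0.655 to 0.693 in libraries 4 to 6.

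**Figure D3:**
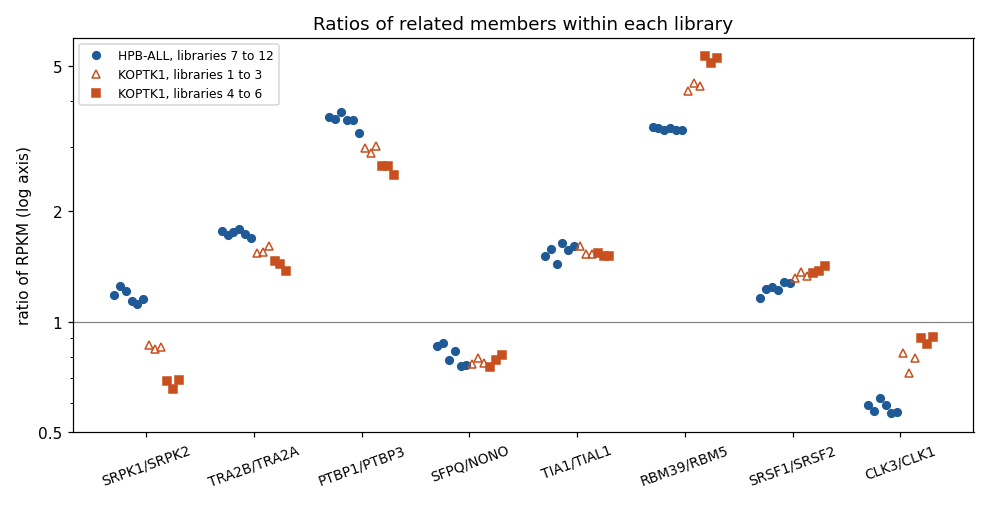
Ratio of the RPKM of related members within each library, on a log axis, with a line at 1. Points are libraries ordered by line, with HPB-ALL in blue and KOPTK1 in orange (open triangles, libraries 1 to 3; filled squares, libraries 4 to 6). The ratio of SRPK1 to SRPK2 is above 1 in all HPB-ALL and below 1 in all KOPTK1 libraries, and those of SFPQ to NONO and of TIA1 to TIAL1 overlap between the lines.

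The CLK kinases phosphorylate SR proteins in the nucleus and release them from speckles. CLK3 (chr15:74608372-74630201, plus strand) showed the largest difference among members that were lower in HPB-ALL. It had 15.2 to 16.7 RPKM in HPB-ALL, with a median of 16.1. In KOPTK1 it had 23.2, 21.7 and 22.5 RPKM in libraries 1, 2 and 3, and 25.4, 25.6 and 26.2 RPKM in libraries 4, 5 and 6. The log2 difference was -0.59 (SE 0.05, adjusted p = 5.3e-07 by edgeR), a level 1.5-fold higher in KOPTK1. It was 1.59-fold higher without libraries 1 to 3 and 1.39-fold higher without libraries 4 to 6. CLK4 had 6.80 to 7.64 RPKM in HPB-ALL and 8.61 to 10.7 RPKM in KOPTK1, again with libraries 4 to 6 the farthest from HPB-ALL (log2 difference -0.42, SE 0.06, adjusted p = 5.5e-05 by edgeR). CLK1 and CLK2 did not pass, with log2 differences of -0.07 (SE 0.03) and 0.01 (SE 0.03), although CLK1 passed with upper quartile normalization (log2 difference -0.11, adjusted p = 0.0081 by edgeR). The lines overlapped for both, at 26.4 to 28.2 and 28.1 to 30.0 RPKM for CLK1, and at 30.4 to 34.0 and 30.8 to 33.2 RPKM for CLK2.

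The sequence before the start sites of SRSF8 and CLK3, the 2 members with the largest differences, was poor in CpG. RefSeq promoters on GRCh38.p14 were matched for 39 of the 44 members, by the first entry of each, and the 250 bases before the start were examined. The median share of G and C was 63.6% over the 39 members and 58% over all 35116 promoters, and the median ratio of observed to expected CpG was 0.967 and 0.558. The 35116 were all entries, neither reduced to 1 per gene nor limited to genes that passed the filter on low counts. The shares therefore do not compare like sets of genes. CLK3 had the lowest ratio of the members (0.159) and SRSF8 the next (0.288), with 3 and 2 CpG dinucleotides against a member median of 25. The third lowest was HNRNPH1 (0.343), with a log2 difference of -0.04 (SE 0.02), which passed only with upper quartile normalization (-0.08, adjusted p = 0.024 by edgeR). Of the members with the next largest differences, RBM39 had no promoter entry, and CLK4 (0.939) and SRPK1 (0.897) had ratios near the member median. A link between CpG and the size of a difference was not tested. The sequences of SRSF8 (chr11:95066627-95066876, plus strand), CLK3 (chr15:74608122-74608371, plus strand) and, for an hnRNP with a composition nearer the member median, HNRNPL (chr19:38852348-38852597, minus strand) are shown 5′ to 3′ with each CpG in capitals.
SRSF8: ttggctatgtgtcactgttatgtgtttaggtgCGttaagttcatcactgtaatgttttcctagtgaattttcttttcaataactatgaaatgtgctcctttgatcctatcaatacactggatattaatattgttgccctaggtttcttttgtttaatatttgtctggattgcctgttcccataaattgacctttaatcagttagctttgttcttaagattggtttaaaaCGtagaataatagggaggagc
CLK3: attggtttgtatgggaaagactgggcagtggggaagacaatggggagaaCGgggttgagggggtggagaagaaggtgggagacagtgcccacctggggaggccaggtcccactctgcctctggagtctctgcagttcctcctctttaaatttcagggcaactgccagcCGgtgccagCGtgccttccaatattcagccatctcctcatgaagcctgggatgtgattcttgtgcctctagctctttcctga
HNRNPL: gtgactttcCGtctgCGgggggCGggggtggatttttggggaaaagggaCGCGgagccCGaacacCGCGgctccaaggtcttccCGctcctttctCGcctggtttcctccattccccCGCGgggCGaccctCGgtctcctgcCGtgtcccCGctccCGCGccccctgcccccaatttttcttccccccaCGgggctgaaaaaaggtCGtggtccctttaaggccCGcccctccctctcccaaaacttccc
The RefSeq start of SRSF8 lies upstream of the start of its row in the tables, and none of the bases shown lie inside the rows. For 27 of the 39 members RefSeq and the tables place the start differently enough that some of the 250 bases lie inside the row. CCAAT, searched on both strands, occurred in 41% of the 39 promoters and in 32% of the same 35116 entries. CACGTG, the canonical E-box, occurred in 12.8% (CLK2, HNRNPA3, HNRNPD, CLK4 and HNRNPM) and 6.34%. Here too the sets of genes are not alike.

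No hnRNP differed by 1.5-fold between the lines. Of 14 hnRNPs, 10 were called (71.4%, against 63.5% of all genes), 7 higher and 3 lower in HPB-ALL with TMM, 4 higher and 4 lower with upper quartile normalization, and 8 higher and 0 lower without the filter. HNRNPL, which binds CA-rich elements, differed most. It had 116 to 124 RPKM in HPB-ALL and 97.7 to 104 RPKM in KOPTK1, with no overlap (log2 difference 0.24, SE 0.02, adjusted p = 2.4e-06 by edgeR). HNRNPM had 132 to 139 RPKM in HPB-ALL and 118 to 123 RPKM in KOPTK1 (log2 difference 0.16, SE 0.02). HNRNPC, which binds uridine tracts, had 94.5 to 96 RPKM in HPB-ALL and 84.8 to 89.5 RPKM in KOPTK1 (log2 difference 0.12, SE 0.02). The lines were apart for HNRNPM and HNRNPC as well.

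HNRNPU (log2 difference 0.14), HNRNPUL1 (0.13), HNRNPA0 (0.13) and HNRNPK (0.08) were also higher in HPB-ALL, with ranges that overlapped. HNRNPU, a nuclear scaffold protein, had 101 to 112 RPKM in HPB-ALL and 84.7 to 102 RPKM in KOPTK1, where library 3 was the lowest. HNRNPA1 was lower in HPB-ALL, with 229 to 246 RPKM against 248 to 287 RPKM (log2 difference -0.15, SE 0.04, adjusted p = 0.0032 by edgeR). The gap was narrow, and the difference did not pass without the filter (adjusted p = 0.07 by edgeR). HNRNPF and HNRNPR were lower by 0.09 and 0.11 on the log2 scale, with overlap.

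HNRNPA2B1, HNRNPA3, HNRNPD and HNRNPH1 did not pass the test with TMM, and HNRNPA3 passed without the filter (adjusted p = 0.035 by edgeR). HNRNPA2B1 had 236 to 262 RPKM in HPB-ALL and 229 to 275 RPKM in KOPTK1, with the narrower range inside the wider (log2 difference 0.00, SE 0.04). HNRNPD (AUF1), which also regulates decay of AU-rich mRNAs, had medians of 141 and 145 RPKM. HNRNPH1, which binds G-rich tracts, had medians of 191 and 198 RPKM. Several hnRNPs have processed pseudogenes that can share reads. The 74 rows named as HNRNPA1 pseudogenes held counts equal to 8.06% of those of HNRNPA1, the 16 of HNRNPA3 5.62% and the 9 of HNRNPC 2.13%.

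PTBP1 and PTBP3, paralogues that bind pyrimidine tracts and repress exons, differed in opposite directions. PTBP1 had 127 to 137 RPKM in HPB-ALL and 111 to 126 RPKM in KOPTK1, apart by a narrow gap (log2 difference 0.18, SE 0.03, adjusted p = 0.00037 by edgeR). PTBP3 had 36.8 to 38.7 RPKM in HPB-ALL and 41.0 to 44.1 RPKM in KOPTK1 (log2 difference -0.17, SE 0.03, adjusted p = 6.8e-05 by edgeR). The ratio of PTBP1 to PTBP3 was 3.27 to 3.73 in HPB-ALL and 2.52 to 3.01 in KOPTK1. SFPQ and NONO, partners in paraspeckles, were higher in HPB-ALL by 0.11 (SE 0.04) and 0.06 (SE 0.02) on the log2 scale with TMM and did not pass with upper quartile normalization. Their ratio overlapped between the lines, at 0.758 to 0.873 and 0.750 to 0.813.

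RBM39 (CAPER; chr20:35703610-35742312, minus strand), a relative of U2AF that takes part in recognition of 3′ splice sites, differed most among the RBM and TIA proteins. It had 102 to 103 RPKM in all 6 HPB-ALL libraries. In KOPTK1 it had 130, 135 and 132 RPKM in libraries 1, 2 and 3, and 163, 159 and 163 RPKM in libraries 4, 5 and 6. The log2 difference was -0.53 (SE 0.06, adjusted p = 6.2e-06 by edgeR), 1.44-fold higher in KOPTK1. It was 1.57-fold higher without libraries 1 to 3 and 1.29-fold higher without libraries 4 to 6. RBM5, which acts on exon inclusion in apoptosis genes, had 30.1 to 31.0 RPKM in HPB-ALL and 30.0 to 31.4 RPKM in KOPTK1, and did not pass the test (log2 difference -0.01, SE 0.02). The ratio of RBM39 to RBM5 was 3.33 to 3.40 in HPB-ALL, 4.26 to 4.49 in KOPTK1 libraries 1 to 3 and 5.07 to 5.32 in libraries 4 to 6.

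TIA1 and TIAL1, which bind uridine-rich sequence after 5′ splice sites, were both lower in HPB-ALL. TIA1 had 40.6 to 43 RPKM in HPB-ALL and 45.4 to 48.4 RPKM in KOPTK1 (log2 difference -0.16, SE 0.03). TIAL1 had 25.4 to 28.3 RPKM in HPB-ALL and 28.3 to 32.1 RPKM in KOPTK1 (log2 difference -0.18, SE 0.04). RBM25, a partner of the U1 snRNP, had 30.0 to 31.6 RPKM in HPB-ALL and 24.7 to 31.3 RPKM in KOPTK1, where library 3 was the lowest and library 2 the highest. It was higher in HPB-ALL with all libraries (log2 difference 0.12, SE 0.05, adjusted p = 0.033 by edgeR) and did not pass without KOPTK1 libraries 4 to 6 (adjusted p = 0.14 by edgeR).

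The position of KOPTK1 libraries 1 to 3 was examined for all members. For 29 of the 44 (65.9%, against 63.1% of all genes tested), the HPB-ALL libraries did not overlap KOPTK1 libraries 4 to 6. For 16 members (36.4%, against 31.9% of all genes tested), libraries 1 to 3 lay wholly in the gap. These were SRSF2, SRSF5, SRSF6, SRSF7, SRSF8, TRA2A, SRPK1, CLK3, CLK4, HNRNPA1, HNRNPC, HNRNPL, PTBP1, PTBP3, RBM39 and TIA1. Of the 32 members called with all libraries, the absolute difference was larger without libraries 1 to 3 for 29 and smaller without libraries 4 to 6 for 27. The fits share libraries, so these counts are not separate results, and they were not made for all genes. Over all genes tested, the median absolute log2 difference was 0.48 without libraries 1 to 3, 0.355 with all and 0.275 without libraries 4 to 6. Over the members it was 0.158, 0.126 and 0.112.

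Members varied little among the libraries of a line (plot of the coefficient of variation against level). The median coefficient of variation over 6 libraries was 2.60% over the members in HPB-ALL and 3.63% in KOPTK1. It was 9.41% and 15.6% over all genes tested, and 2.61% and 5.43% over genes of like level to each member (mean log2 CPM within 0.5). Of the 44 members, 17 in HPB-ALL and 11 in KOPTK1 varied more than the median gene of like level. In HPB-ALL the widest were HNRNPA0 (6.69%), SFPQ (6.41%) and HNRNPA3 (6.14%), and the narrowest was RBM39 (0.553%). In KOPTK1 the widest were SRSF8 (29.8%), RBM39 (11.1%) and SRPK1 (11.1%), each among the members for which libraries 1 to 3 and 4 to 6 were apart, and the narrowest was NONO (0.751%).

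**Figure D4:**
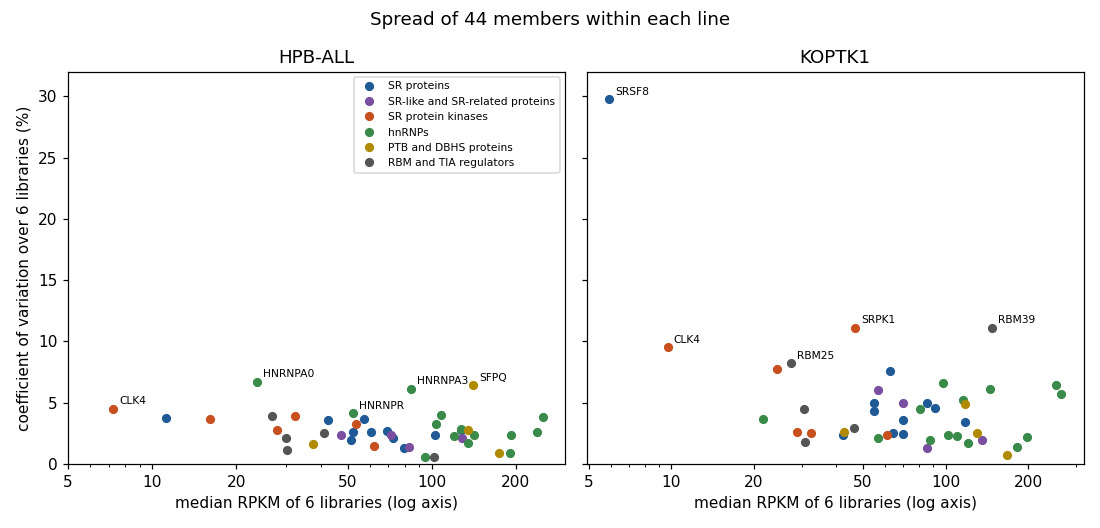
Coefficient of variation over the 6 libraries of a line, in percent, against the median RPKM on a log axis, for HPB-ALL (left) and KOPTK1 (right). Each point is 1 member, coloured by class, and the 5 widest are named in each panel. All members lie below 7% in HPB-ALL, whereas SRSF8 reaches 29.8% in KOPTK1.

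Of the other splicing regulators, 52 of 54 rows passed the filter and 41 were called (78.8%, against 63.5% of all genes), 17 higher and 24 lower in HPB-ALL, with a median log2 difference of -0.05. Without the filter 21 were higher and 16 lower. The largest differences were in KHDRBS3 (1.45, SE 0.34), RBM3 (0.55, SE 0.06) and PPP1CA (0.37, SE 0.05) on one side. On the other were ESRP2 (-0.99, SE 0.13), SRSF12 (-0.92, SE 0.27) and MBNL3 (-0.84, SE 0.07). SRSF12 was near the floor, with medians of 0.137 RPKM in HPB-ALL and 0.227 RPKM in KOPTK1, and its ranges overlapped between the lines. KHDRBS3, a relative of SAM68, had 15.4 to 17.1 RPKM in HPB-ALL, 8.82 to 9.88 RPKM in KOPTK1 libraries 1 to 3 and 2.01 to 2.59 RPKM in libraries 4 to 6. Of 47 core spliceosome genes, 38 were called (80.9%), 31 higher and 7 lower in HPB-ALL, with a median log2 difference of 0.17, and with upper quartile normalization 29 were higher and 8 lower. USP39 (0.57, SE 0.09), PRPF8 (0.52, SE 0.08) and SF3A1 (0.47, SE 0.07) led those higher, and DHX8 (-0.31, SE 0.04), SNRPB2 (-0.22, SE 0.03) and BUD31 (-0.17, SE 0.03) those lower.

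Some members share exon positions with other genes in the tables. The overlap was taken by position alone, and the strands of the genes were not compared. Of the exon bases of SRSF9, 41.2% also lie in exons of GATC, and of those of SRSF2, 34.7% lie in MFSD11 and 1 other gene. The shares were 23.5% for RBM5, 22.9% for SRSF1, 22.3% for HNRNPL and 12.8% for HNRNPM. How many of their counts came from the shared bases was not tested, and the levels of these genes are uncertain.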

How the data were processed

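RNA-Seq reads of 12 libraries were processed by the authors, whose processing notes list Trimmomatic 0.36, STAR 2.5.4b, Picard 2.18.7, featureCounts 1.6.2, edgeR 3.22.3 and hg38, while the methods describe mapping to hg19 with Bowtie 2 for junctions. The deposited values are estimated counts per gene (15.1% to 17.2% not whole), which were rounded for the tests. Whether counting used strand is not given in the sources used here. The authors' columns of fold change, average expression, F, p-value and FDR hold a comparison of their own and were not used. RPKM was computed from the counts, their library total and the exon length in the tables. Symbols were matched to 95.9% of the identifiers.

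Lines were compared with edgeR 4.0.16 (R 4.3.3), with TMM, the quasi-likelihood test and Benjamini-Hochberg adjustment, for genes with at least 10 counts in at least 6 libraries. Where libraries were left out, the filter asked for as many libraries as the smaller line retained. The shares of all genes in those fits therefore rest on other sets of genes. The sign is HPB-ALL minus KOPTK1. In counts simulated for 27746 genes the fit recovered 100% of 200 genes given a log2 change of 1, with 6.10% of calls false. That change exceeds the difference of every member with all libraries, so the recovery does not bear on calls of small differences. The simulation also gave all genes the same dispersion, changed a far smaller share of genes than was called, and had no split within KOPTK1. Alternatives were DESeq2 1.42.0, no filter, upper quartile scaling, a 1.5-fold minimum and leaving out each library. Leaving out KOPTK1 libraries 1 to 3 or 4 to 6 was added after seeing the data. Ranges were compared in RPKM. All 44 members are named, and of the other lists the 3 called genes with the largest fold in each direction. The members and lists were chosen with earlier results of these data known. The comparisons of shSHQ1 with shGFP planned on these counts were not run, since no label ties a column to an shRNA. Other steps used Python 3.11.15 with pandas 2.3.3, numpy 2.4.6 and matplotlib 3.10.9.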

Additional observations from a re-analysis of the deposited data

Results flagged for a closer look

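Members were screened in each line for a library whose gap to the nearest other exceeded Dixon's critical share of the range of the 6. Of 88 sets, 5 were found, against 4.4 at a rate of 1 in 20. That rate assumes sets of like libraries, whereas KOPTK1 libraries 1 to 3 stood apart from libraries 4 to 6. The sets also share libraries, so the comparison does not show whether the flags arose by chance. In HPB-ALL, SRSF4 stood high in library 10, at 53.7 RPKM against 50.9 to 51.9 RPKM in the others. TRA2A stood high in library 12, at 49.7 RPKM against 46.6 to 47.6 RPKM. HNRNPM stood high in library 8, at 139 RPKM against 132 to 135 RPKM. PTBP1 stood low in library 12, at 127 RPKM against 134 to 137 RPKM. In KOPTK1, HNRNPU stood low in library 3, at 84.7 RPKM against 96.1 to 102 RPKM.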

How the results depend on the processing

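No paired analysis was possible because the columns carry no label of a sample, and the planned comparisons of shSHQ1 with shGFP, with their alternatives, were not run. For the lines, 693 of 748 member values stayed on the same side of zero and of the threshold over 17 alternatives. Of the rest, 21 were weaker, 13 stronger and 21 reversed, the last all in 9 members that did not pass in the first place. The same counts were not made for other genes. A minimum of 1.5-fold left 8168 of 17820 genes and 2 members, 1 higher and 1 lower in HPB-ALL. Upper quartile normalization left 10 members higher. Leaving out 1 library gave 16920 to 18410 genes and 30 to 33 members, 15 to 18 higher and 15 to 16 lower. The median level of the members was 72.1 to 72.4 RPKM in HPB-ALL and 69.5 to 71.1 RPKM in KOPTK1 without 1 library. Without the filter the log2 difference turned for RBM5 (0.053), HNRNPD (0.043), HNRNPH1 (0.028), TRA2B (0.025) and SRSF4 (0.0084). With upper quartile normalization it turned for HNRNPA2B1 (-0.037), CLK2 (-0.034), SRSF10 (-0.024) and SRRM1 (-0.0055), and with DESeq2 for RBM5 (0.01). Without KOPTK1 libraries 1 to 3 it turned for HNRNPA2B1 (-0.044), and without libraries 4 to 6 for HNRNPD (0.041) and RBM5 (0.020). Leaving out 1 library gave -0.0048 to 0.026 for CLK2, -0.020 to 0.044 for HNRNPA2B1, -0.050 to 0.0075 for HNRNPD and -0.018 to 0.003 for RBM5. The cause was not tested. Over all genes the median log2 difference was -0.07 with upper quartile normalization, against -0.03 with TMM and the filter. Without the filter, also with TMM, it was -0.09 over a larger set of genes, so that median is not comparable with the others. Depth limits the KOPTK1 libraries most, and SRSF8 has the fewest counts (413).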

Other observations

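SHQ1, the target of the knockdown, is given by library because no label ties a column to an shRNA. In HPB-ALL it had 70.3, 71.8 and 70.9 RPKM in libraries 7, 8 and 9, and 47.6, 46.4 and 49.1 RPKM in libraries 10, 11 and 12, so its values fell into separate clusters. In KOPTK1 it had 45.7, 44.1 and 46.4 RPKM in libraries 1, 2 and 3, and 41.9, 41.8 and 39.3 RPKM in libraries 4, 5 and 6. Among the members, SRSF8 had 12, 11.4 and 11.3 RPKM in HPB-ALL libraries 7, 8 and 9, and 11, 10.9 and 10.9 RPKM in libraries 10, 11 and 12.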
